A study of Mus musculus with 35 samples.

Results

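Adenosine receptors and the enzymes that make and remove adenosine were measured as transcripts in bone marrow-derived macrophages (BMDMs) of C57BL/6 mice. The gene set has 7 members, Adora2a, Adora2b, Adora3, Entpd1, Nt5e, Ada and Adk, and all 7 were found by symbol among the 47069 gene identifiers of each library. WT cultures and cultures labelled AMPKa1-/-, which lack the catalytic subunit α1 of the energy sensor AMPK according to their label, were exposed for 24 h to vehicle (DMSO), 100 nM dexamethasone (Dex, a synthetic glucocorticoid), 100 ng/ml lipopolysaccharide (LPS, a bacterial ligand of Toll-like receptor 4), LPS + Dex, 1 µg/ml DAMPs (damage-associated molecular patterns, whose composition the labels do not give) or DAMPs + Dex. Each of these 12 groups had 3 libraries except WT LPS, of which replicates 2 and 3 were used and replicate 1 was not analysed here, giving 17 WT libraries and 18 labelled AMPKa1-/-. All marrow was grown out in L929-conditioned medium, the labels give neither age nor sex of the mice (the study's methods speak of young adults of both sexes), and no treatment or allele other than those named is given.

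The Dex and LPS labels were checked with genes of known response; no gene was set to check the DAMPs label. Tsc22d3, which encodes the glucocorticoid-induced protein GILZ, stood at 54.3, 51.7 and 54.6 FPKM in WT vehicle and at 724, 667 and 736 FPKM in WT Dex. Il6, an inflammatory cytokine gene, had 0.0426, 0.0933 and 0.157 FPKM in WT vehicle and 489 and 524 FPKM in WT LPS. Fkbp5, another glucocorticoid target, rose in WT with Dex by 6.88 on the log2 scale (limma adjusted p = 4.6e-22). Nos2, the inducible nitric oxide synthase gene, had 0.0130, 0.0142 and 0.0597 FPKM in WT vehicle and 35.7 and 133.7 FPKM in WT LPS. The genotype label could not be checked in the same way. Prkaa1, the gene of AMPKα1, had 15.9, 11.8 and 15.3 FPKM in WT vehicle and 14.8, 16.5 and 15.4 FPKM in vehicle labelled AMPKa1-/-, and the 2 groups overlapped. The difference was 0.12 on the log2 scale with a 95% interval of -0.36 to 0.60 (limma adjusted p = 1). The values cover the whole gene and do not resolve a deletion of part of it, so the group is called by its label throughout, and every direction below that rests on the genotype rests on that label alone.

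Adenosine is a danger and resolution signal outside the cell. ATP released from stressed cells is cut to AMP by ecto-nucleoside triphosphate diphosphohydrolase CD39 (Entpd1), and AMP is cut to adenosine by the ecto-5′-nucleotidase CD73 (Nt5e). Adenosine then acts on G protein-coupled receptors, of which those encoded by Adora2a and Adora2b raise cAMP and are known to restrain inflammatory macrophages, while those encoded by Adora1 and Adora3 lower it. Adenosine is removed by deamination to inosine (adenosine deaminase, Ada) or by phosphorylation back to AMP (adenosine kinase, Adk).

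The values are FPKM, that is, the fragments of a gene scaled by its length and by the fragments of its library. Library totals read from the steps that 1 fragment makes were 15837203 to 31955298 fragments, and the FPKM of the members came out as whole fragments with these totals. For Adora2a in WT vehicle, for example, 27, 17 and 16 fragments lay behind the values, against 3607 and 4869 in WT LPS. The gene length behind an FPKM differs from the summed exons of the annotation for most members: 1059 bases gave whole fragments for Entpd1, against 5580 exonic bases, while both were 1845 for Adora2b. For that reason levels of the members are compared between treatments of one gene and not ranked between genes. Sums of FPKM over a list of marker genes are rough for the same reason.

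Testing was limited to genes that averaged 1 FPKM or more across all 35 libraries, which 6 of the 7 members did and Nt5e did not. Outside the LPS and LPS + Dex libraries Adora2a never exceeded 1.03 FPKM and Adora3 never exceeded 0.730 FPKM, so both passed only through libraries treated with LPS and had to differ there. Without the libraries of LPS alone, Adora3 averaged 0.810 FPKM, so its differences between LPS + Dex and LPS also lean on that filter. Fold changes are differences of log2(FPKM + 1), which understates the change of weakly expressed genes, and a gene is said to rise, fall or be called where the adjusted p of limma was under 0.05 among all 11354 genes tested. The p-values measure the spread between libraries as labelled, and the labels do not say which cultures came from separate mice. LPS replicate 3 labelled AMPKa1-/- stood farthest from its group mean over the 6 tested members (mean absolute deviation 0.492 on the log2 scale), followed by WT LPS + Dex replicates 3 (0.405) and 2 (0.397), and calls lost or gained without them are given beside the results. In bulk RNA, fewer cells of a type and less RNA per cell cannot be told apart.

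The stretches of DNA before the start sites of Adora3, Adora2b and Ada are shown because both receptors rose with LPS from start regions of unlike base composition and because Ada was the single member that rose with Dex alone in both genotypes. They are the 250 bases before the RefSeq start site (GRCm38.p6), read along the gene's strand, with capitals marking a match to a searched motif.
Adora3 (chr3:105904171-105904420, plus strand): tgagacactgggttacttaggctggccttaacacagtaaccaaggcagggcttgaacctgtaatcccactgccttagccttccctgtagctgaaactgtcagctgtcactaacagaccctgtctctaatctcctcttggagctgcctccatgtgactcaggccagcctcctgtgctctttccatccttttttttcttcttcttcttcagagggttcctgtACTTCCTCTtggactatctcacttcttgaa
Adora2b (chr11:62248734-62248983, plus strand): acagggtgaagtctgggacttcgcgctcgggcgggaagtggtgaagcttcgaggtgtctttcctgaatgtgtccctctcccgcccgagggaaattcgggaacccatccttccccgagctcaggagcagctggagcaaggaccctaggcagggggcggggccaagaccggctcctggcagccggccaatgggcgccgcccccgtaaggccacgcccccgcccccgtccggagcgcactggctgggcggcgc
Ada (chr2:163750240-163750489, minus strand): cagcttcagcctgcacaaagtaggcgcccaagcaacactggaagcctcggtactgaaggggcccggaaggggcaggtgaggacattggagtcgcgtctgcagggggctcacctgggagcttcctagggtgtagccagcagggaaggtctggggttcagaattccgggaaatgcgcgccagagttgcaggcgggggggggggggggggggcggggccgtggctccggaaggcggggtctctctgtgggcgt

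Over the 300 bases from 250 before to 50 after the start, the Adora3 window had 48.3% GC and 1 CpG, against 70% GC and 27 CpG for Adora2b and 68% GC and 20 CpG for Ada. The medians of all 32851 windows were 52.7% GC and 7 CpG, so Adora3 lay below both medians and the other 2 genes above them. Both strands of the 8 windows that 6 members have were searched for 7 motifs. The capitals in Adora3 are AGAGGAAGT, the core bound by the macrophage factor PU.1, on the minus strand, with the first of its bases 30 before the start; 1% of all windows hold it. No member window held the glucocorticoid receptor half-site AGAACA (19% of all windows), the palindrome of that receptor (0.475%), the NF-kB motif (4.79%), the cAMP response element TGACGTCA (1.79%), the hypoxia response element ACGTG (19.6%) or C/EBP TTGCGCAA (0.183%). The half-site and the palindrome can overlap, and a window without these letters says nothing of sites elsewhere.

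Adora2a (chromosome 10 from 75316877 to 75334784), the gene of the high-affinity adenosine receptor that raises cAMP, was close to silent without LPS and had the highest fold of the members under it. In WT it had 0.579, 0.399 and 0.316 FPKM with vehicle, 67.0 and 80.7 FPKM with LPS, and 39.7, 25.1 and 49.6 FPKM with LPS + Dex. In cultures labelled AMPKa1-/- it had 0.269, 0.431 and 0.318 FPKM with vehicle, 63.0, 66.0 and 128 FPKM with LPS, and 37.9, 36.7 and 42.5 FPKM with LPS + Dex. The 3 groups did not overlap in either genotype: LPS was highest, LPS + Dex in between and vehicle far below, and the highest value of all was LPS replicate 3 labelled AMPKa1-/-. The mean with LPS was 171-fold that of vehicle in WT and 253-fold in cultures labelled AMPKa1-/-, and the mean with LPS + Dex was still 88.4-fold and 115-fold that of vehicle. Against LPS alone, Dex lowered Adora2a by 0.98 (standard error 0.22, limma adjusted p = 0.00098) on the log2 scale in WT and by 1.04 (standard error 0.20, adjusted p = 0.00012) in cultures labelled AMPKa1-/-, a loss to 0.517 and 0.455 of the mean with LPS. With 0.1 in place of 1 added to the FPKM, which weighs low values more, the WT difference kept its size but was no longer called (adjusted p = 0.051).

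Without LPS the level of Adora2a was lower with Dex too, on few fragments. With Dex alone WT libraries had 0.124, 0.170 and 0.230 FPKM, all below the WT vehicle libraries, from 5, 8 and 11 fragments. The log2 difference was -0.28 (limma adjusted p = 0.29) in WT and -0.23 (adjusted p = 0.42) in cultures labelled AMPKa1-/-, neither of which passed. With 0.1 added the WT difference was -0.94 (adjusted p = 0.046). With DAMPs the cultures labelled AMPKa1-/- had 0.918, 0.841 and 1.03 FPKM, and with DAMPs + Dex 0.114, 0.150 and 0.325 FPKM. In WT the values were 0.678, 0.456 and 0.408 FPKM against 0.154, 0.0249 and 0.370 FPKM, so the groups overlapped in neither genotype. The fall of 0.69 on the log2 scale labelled AMPKa1-/- was called (adjusted p = 0.011; -0.50, adjusted p = 0.05 and not called, after quantile normalization), and the WT difference was -0.36 (adjusted p = 0.21), or -1.29 (adjusted p = 0.0073) with 0.1 added.

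Adora2b (chromosome 11 from 62248984 to 62266453), the gene of the low-affinity receptor that raises cAMP, rose with LPS and was the member lowered most by Dex on top of LPS. WT vehicle libraries had 1.97, 1.48 and 2.90 FPKM, WT LPS 41.2 and 63.9 FPKM, and WT LPS + Dex 9.35, 3.71 and 12.9 FPKM. Libraries labelled AMPKa1-/- had 1.69, 1.78 and 2.86 FPKM with vehicle, 34.8, 43.3 and 38.7 FPKM with LPS, and 2.16, 3.18 and 3.32 FPKM with LPS + Dex. Every LPS + Dex library lay below every LPS library, and in the cultures labelled AMPKa1-/- the LPS + Dex and vehicle libraries overlapped, while in WT they did not. LPS raised Adora2b by 4.09 (standard error 0.28, limma adjusted p = 9.1e-13) in WT and by 3.70 (standard error 0.25, adjusted p = 5e-13) in cultures labelled AMPKa1-/-, and Dex on top of LPS lowered it by 2.57 (adjusted p = 2.4e-08) and 3.37 (adjusted p = 1.2e-11). The mean with LPS + Dex was 0.165 of that with LPS in WT and 0.0742 in cultures labelled AMPKa1-/-. Against vehicle, LPS + Dex still gave 1.52 in WT (adjusted p = 9.8e-06), while in cultures labelled AMPKa1-/- it gave 0.33 (adjusted p = 0.27), or 0.76 (adjusted p = 0.018) after quantile normalization.

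No change of Adora2b with Dex alone or with Dex on DAMPs was called. WT had 1.71, 1.55 and 1.54 FPKM with DAMPs and 2.56, 2.73 and 2.61 FPKM with DAMPs + Dex, which did not overlap. That log2 difference was 0.48 (limma adjusted p = 0.18), and it was -0.02 (adjusted p = 0.97) in cultures labelled AMPKa1-/-. WT Dex libraries had 2.41, 1.96 and 1.75 FPKM, within the span of WT vehicle, and the log2 difference was -0.02 with a 95% interval of -0.53 to 0.50 (limma adjusted p = 0.96). The effect of Dex in the presence of LPS therefore differed from its effect without LPS by -2.56 on the log2 scale in WT (adjusted p = 6.8e-06) and by -3.17 in cultures labelled AMPKa1-/- (adjusted p = 8.6e-08). This non-additive term, the Dex effect under LPS minus the Dex effect under vehicle, was called for Adora2a at -0.81 in cultures labelled AMPKa1-/- (adjusted p = 0.032) and was -0.70 in WT (adjusted p = 0.076). The WT term was called with the replicate number as a block (-0.73, adjusted p = 0.037) and without LPS + Dex replicate 3 (-0.91, adjusted p = 0.021). With 0.1 added to the FPKM, the WT log2 difference with Dex was nearly the same under LPS (-0.9993) as under vehicle (-0.941). Little of the WT term was thus left in that setting. The Adora2a call labelled AMPKa1-/- was lost without any one of 6 of its libraries (adjusted p = 0.057 to 0.15, the highest without LPS replicate 3, at -0.48). It was also lost with 0.1 added to the FPKM (-0.18, adjusted p = 0.83), without a filter on low values (adjusted p = 0.065) and with only the groups compared in the fit (0.069). By mean FPKM, Adora2a labelled AMPKa1-/- with Dex was 0.409 of vehicle, and with LPS + Dex it was 0.455 of LPS. The same parts in WT were 0.405 and 0.517. The fold of Adora2a with Dex was thus no greater under LPS, and the size of its term depended on the amount added to the FPKM.

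Adora3 (chromosome 3 from 105870858 to 105908926), the gene of a receptor that lowers cAMP, kept to a few FPKM even with LPS. WT had 0.404, 0.476 and 0.343 FPKM with vehicle, 5.37 and 3.50 FPKM with LPS, and 1.64, 1.92 and 2.34 FPKM with LPS + Dex, and these 3 groups did not overlap. Libraries labelled AMPKa1-/- had 0.438, 0.468 and 0.596 FPKM with vehicle, 4.31, 6.08 and 2.50 FPKM with LPS, and 3.41, 2.73 and 3.46 FPKM with LPS + Dex. There the last 2 groups overlapped, because LPS replicate 3 lay below all 3 LPS + Dex libraries. The mean with LPS was 10.9-fold that of vehicle in WT and 8.58-fold in cultures labelled AMPKa1-/-. Between LPS + Dex and LPS the log2 difference of Adora3 was -0.86 in WT, or -0.61 without WT LPS replicate 2. In cultures labelled AMPKa1-/- it was -0.28, or -0.55 without LPS replicate 3. No limma p is given for these differences, because Adora3 passed the filter only through the libraries of LPS alone. With Dex alone WT libraries had 0.0716, 0.0616 and 0.242 FPKM, all below WT vehicle, a log2 difference of -0.33 (adjusted p = 0.16), or -1.25 (adjusted p = 0.016) with 0.1 added. In WT, DAMPs + Dex libraries had 0, 0.216 and 0.197 FPKM against 0.463, 0.723 and 0.717 FPKM with DAMPs. That fall of 0.52 was called (adjusted p = 0.028), although the library at 0 allows up to 0.0742 FPKM and the call was lost without it (adjusted p = 0.12) or without DAMPs replicate 2 (0.088) or 3 (0.086), and after quantile normalization (0.16). Adora3 overlaps Tmigd3 on the same strand, so fragments of the shared stretch can be assigned to either; Tmigd3 averaged 0.378 FPKM in WT LPS and 0.486 FPKM in WT vehicle.

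**Figure D1:**
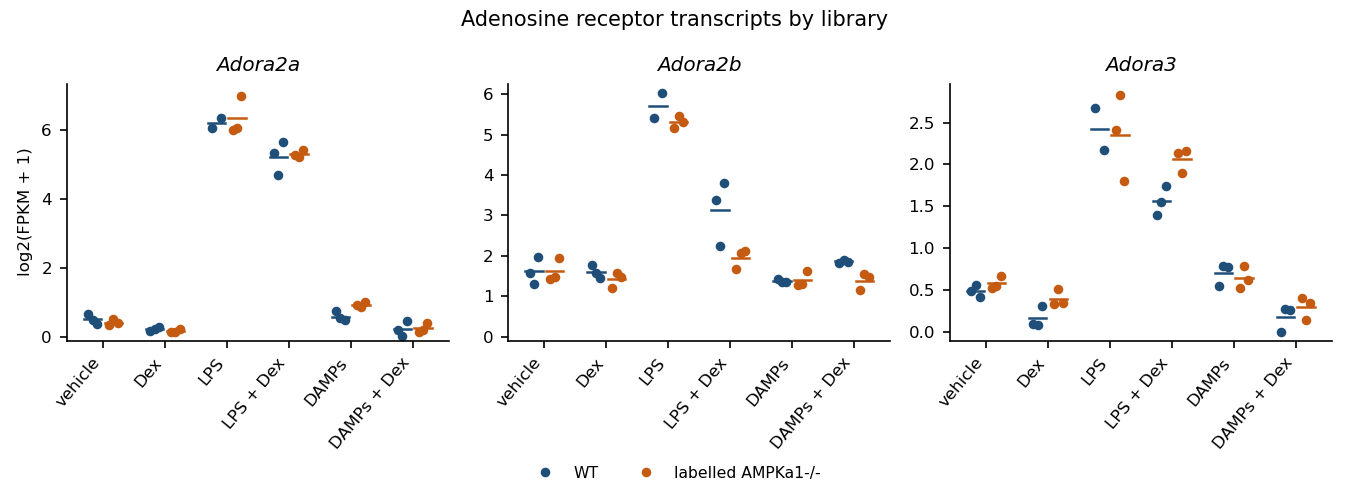
Level of each adenosine receptor transcript in every library on the log2(FPKM + 1) scale (vertical axis, a different span in each panel), by treatment (horizontal axis) and genotype label (colour); points are libraries and bars are group means. The group means of all 3 receptors are highest with LPS, and for Adora2b the LPS + Dex libraries labelled AMPKa1-/- (2.16 to 3.32 FPKM) lie near vehicle while Adora2a stays far above it (36.7 to 42.5 FPKM).

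Adora1, the remaining receptor gene of the family, was listed at 0 in all but 3 of the 35 libraries. The order of treatments was alike for the 3 expressed receptors at the top, LPS and then LPS + Dex. Below these, neighbouring treatments mostly overlapped: for Adora2b labelled AMPKa1-/- no 2 neighbours from LPS + Dex (mean 2.89 FPKM) down to DAMPs + Dex (mean 1.63 FPKM) were separated.

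Entpd1 (chromosome 19 from 40612366 to 40741602), which encodes CD39, went the opposite way. WT vehicle libraries had 140.3, 106 and 119.8 FPKM, WT LPS 4.40 and 12.3 FPKM, and WT LPS + Dex 3.82, 3.95 and 3.21 FPKM. Libraries labelled AMPKa1-/- had 92.4, 97.8 and 103 FPKM with vehicle, 2.71, 3.80 and 3.85 FPKM with LPS, and 1.90, 3.85 and 1.64 FPKM with LPS + Dex. All LPS and LPS + Dex libraries lay far below all vehicle libraries, and the mean with LPS was 14.6-fold lower than with vehicle in WT and 28.4-fold lower in cultures labelled AMPKa1-/-. The WT fold depended on LPS replicate 3 and was 27.7 without it. The log2 changes were -3.85 in WT (standard error 0.29, limma adjusted p = 4.7e-12; -4.50 without that library) and -4.48 (standard error 0.26, adjusted p = 1.2e-14), so that Entpd1 had the largest fall with LPS among the members.

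No rise of Entpd1 with Dex was called. With LPS + Dex the mean was 33.3-fold below vehicle in WT and 39.7-fold below in cultures labelled AMPKa1-/-. The further difference between LPS + Dex and LPS was -0.87 in WT (limma adjusted p = 0.019) and -0.40 in cultures labelled AMPKa1-/- (adjusted p = 0.23). The WT value depended on LPS replicate 3, the higher of the 2 WT LPS libraries: without it the difference was -0.21 (adjusted p = 0.65), and without LPS + Dex replicate 3 it was -0.80 (adjusted p = 0.054). With Dex alone Entpd1 had 106, 75.6 and 96.5 FPKM in WT, and -0.40 on the log2 scale was not called (adjusted p = 0.24).

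Nt5e (chromosome 9 from 88327197 to 88372092), which encodes CD73, was at the limit of detection everywhere. It was above 0 in 26 of 35 libraries, with a mean of 0.0329 FPKM, and no library had more than 9 fragments. WT LPS libraries had 0.110 and 0.111 FPKM from 8 and 9 fragments, and WT vehicle libraries 0.0319, 0 and 0.0293 FPKM. The 9 libraries at 0 allow up to 0.0381 to 0.0555 FPKM, so differences of that size could not be seen, and Nt5e was not tested.

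Ada (chromosome 2 from 163726584 to 163750239), adenosine deaminase, was raised by Dex and lowered by LPS. WT libraries had 6.61, 8.61 and 5.95 FPKM with vehicle and 22.8, 16.5 and 21.1 FPKM with Dex, and libraries labelled AMPKa1-/- had 7.62, 7.86 and 6.45 FPKM with vehicle and 17.6, 33.5 and 23.6 FPKM with Dex. No Dex library overlapped vehicle. The rises were 1.39 (standard error 0.28, limma adjusted p = 0.00033) in WT and 1.60 (standard error 0.28, adjusted p = 6.2e-05) in cultures labelled AMPKa1-/-, or 2.85-fold and 3.40-fold by the means. On top of DAMPs the rise was greater in value: 8.14, 9.00 and 10.5 FPKM with DAMPs became 44.7, 40.7 and 29.4 FPKM with DAMPs + Dex in WT, a log2 difference of 1.93 (adjusted p = 4.3e-06), and 8.91, 9.10 and 8.49 FPKM became 45.2, 37.8 and 37.2 FPKM in cultures labelled AMPKa1-/-, a difference of 2.06 (adjusted p = 1.6e-06). Whether the Dex effect with DAMPs exceeded that with vehicle was not tested.

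With LPS the level of Ada was a small part of that with vehicle, and with LPS + Dex it stayed below vehicle. WT LPS libraries had 1.30 and 1.16 FPKM and WT LPS + Dex libraries 3.46, 4.47 and 1.83 FPKM, while those labelled AMPKa1-/- had 2.76, 2.75 and 0.494 FPKM with LPS and 2.52, 2.67 and 1.21 FPKM with LPS + Dex. The groups did not overlap in WT but did in cultures labelled AMPKa1-/-, and LPS + Dex lay below vehicle in both. Against vehicle, LPS lowered Ada by 1.84 in WT (limma adjusted p = 1.1e-05) and by 1.58 in cultures labelled AMPKa1-/- (adjusted p = 1.5e-05). LPS + Dex lay below vehicle by 0.96 in WT (adjusted p = 0.0045; 0.69, adjusted p = 0.052, without LPS + Dex replicate 3) and by 1.44 in cultures labelled AMPKa1-/- (adjusted p = 6.8e-05). The difference between LPS + Dex and LPS was 0.88 in WT (adjusted p = 0.028; 0.064 to 0.14 without LPS replicate 2 or 3 or LPS + Dex replicate 1 or 2, and 0.057 without a filter on low values) and 0.15 in cultures labelled AMPKa1-/- (adjusted p = 0.73). In the latter the Dex effect was 1.45 smaller on the log2 scale with LPS than with vehicle (adjusted p = 0.0056; -1.39, adjusted p = 0.064, with 0.1 added to the FPKM), and in WT the same term was -0.51 (adjusted p = 0.35).

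Adk (chromosome 14 from 21052574 to 21448569), adenosine kinase, fell with LPS and returned with Dex. WT vehicle libraries had 15.6, 14.6 and 14.5 FPKM, WT LPS 5.15 and 5.21 FPKM, and WT LPS + Dex 11.2, 14.8 and 7.37 FPKM. Libraries labelled AMPKa1-/- had 16.3, 19.8 and 13.4 FPKM with vehicle, 7.69, 7.84 and 3.08 FPKM with LPS, and 16.3, 15.5 and 9.70 FPKM with LPS + Dex. LPS libraries lay below all others in each genotype, and LPS + Dex overlapped vehicle in both. LPS lowered Adk by 1.36 (limma adjusted p = 4.1e-05) in WT and 1.35 (adjusted p = 8.1e-06) in cultures labelled AMPKa1-/-, and Dex on top of LPS raised it by 0.92 (standard error 0.25, adjusted p = 0.0049) and 1.09 (standard error 0.23, adjusted p = 0.00028). Against vehicle LPS + Dex gave -0.44 (95% interval -0.90 to 0.02) in WT, where it was called without LPS + Dex replicate 2 (-0.65, limma adjusted p = 0.025), and -0.25 (95% interval -0.72 to 0.21) in cultures labelled AMPKa1-/-.

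No rise of Adk with Dex alone was called. WT Dex libraries had 10.8, 12.4 and 12.2 FPKM, all below WT vehicle, with a log2 difference of -0.31 (limma adjusted p = 0.3). The non-additive term was 1.24 in WT (adjusted p = 0.0062) and 1.43 in cultures labelled AMPKa1-/- (adjusted p = 0.001). Adk was thus the one member with a called non-additive term above 0, and Adora2b had the term farthest below 0.

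**Figure D2:**
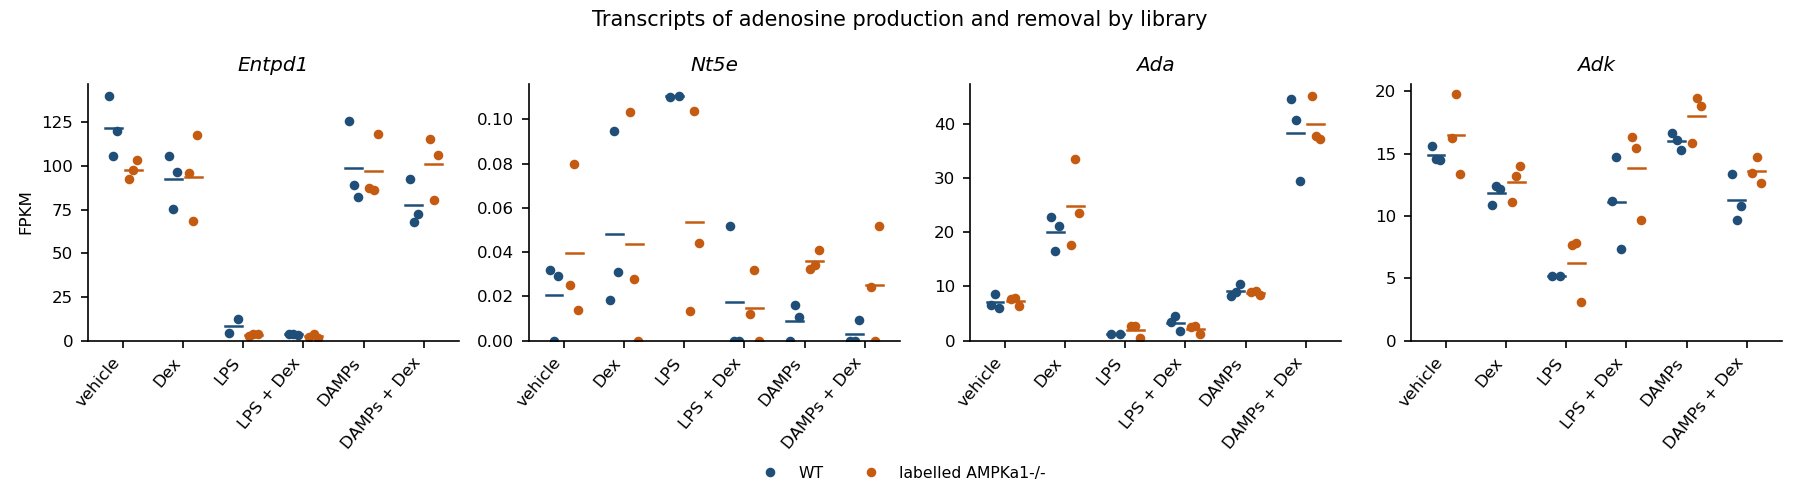
FPKM of the genes of adenosine production (Entpd1, Nt5e) and removal (Ada, Adk) in every library (vertical axis from 0, a different span in each panel), by treatment (horizontal axis) and genotype label (colour); points are libraries and bars are group means. Entpd1 falls to 12.3 FPKM or less in all libraries with LPS, Nt5e never exceeds 0.111 FPKM, Ada is highest with DAMPs + Dex, and Adk is lowest with LPS.

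Counted over the 6 tested members, LPS against vehicle called all 6 in each genotype, the 3 receptors higher and Entpd1, Ada and Adk lower. For Adora2a and Adora3 the filter alone made a difference certain here, so the count is a description. Of all genes tested, 55.7% were called in WT (19.9% higher, 35.8% lower) and 64.3% in cultures labelled AMPKa1-/- (20.2% higher, 44.1% lower), so a call is the common outcome of this comparison and the sizes above carry more than the count. LPS + Dex against LPS called 6 of 6 in WT (Ada and Adk higher, the receptors and Entpd1 lower) beside 34.1% of all genes (16.6% higher, 17.5% lower), or 4 to 5 without any one of the 5 libraries, and 3 of 6 in cultures labelled AMPKa1-/- (Adk higher, Adora2a and Adora2b lower) beside 37.7% (19.3% higher, 18.4% lower). For LPS + Dex against LPS, Adora3 passed the filter only through the libraries of LPS alone, so its place in the WT count is a description. Dex against vehicle called Ada alone in each genotype, beside 30.9% and 27.9% of all genes. With 0.1 added to the FPKM, it also called Adora2a and Adora3 lower in WT. LPS + Dex against vehicle called 5 of 6 in WT beside 54.2%, and 4 of 6 in cultures labelled AMPKa1-/- beside 57.4%. Both counts include Adora2a and Adora3, which passed the filter only through libraries treated with LPS, so these counts are also a description. The non-additive term called 2 of 6 in WT beside 32% of all genes (Adora2b and Adk) and 4 of 6 in cultures labelled AMPKa1-/- beside 28.4% (Adora2a, Adora2b, Ada and Adk). With 0.1 added to the FPKM, the count labelled AMPKa1-/- was 2, without Adora2a and Ada. When WT LPS and WT LPS + Dex were fitted with no other group, so that 5 libraries estimated the spread, Adora2b was the single member called. The limma adjusted p was 0.061 to 0.17 for Adora2a, Entpd1, Ada and Adk.

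DAMPs against vehicle called none of the 6 members in either genotype by limma, and 2.01% of all genes in WT and 4.13% in cultures labelled AMPKa1-/-. These are 228 and 469 genes, or 26 to 372 and 267 to 453 without any one library. The single member with an unadjusted limma p under 0.05 was Adora2a labelled AMPKa1-/- (difference 0.53, limma adjusted p = 0.18; 1.24, adjusted p = 0.047, with 0.1 added to the FPKM). DAMPs + Dex against DAMPs called 2 of 6 members in each genotype beside 24.3% and 25.3% of all genes, Ada higher in both, with Adora3 lower in WT and Adora2a lower in cultures labelled AMPKa1-/-. Taking every tested gene, LPS shifted the median by -0.19 on the log2 scale from vehicle in WT and by -0.30 in cultures labelled AMPKa1-/-, and LPS + Dex shifted it by -0.23 and -0.28. It was within 0.1 of 0 in the other comparisons of treatments, and the member changes with LPS were all larger than these shifts.

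**Figure D3:**
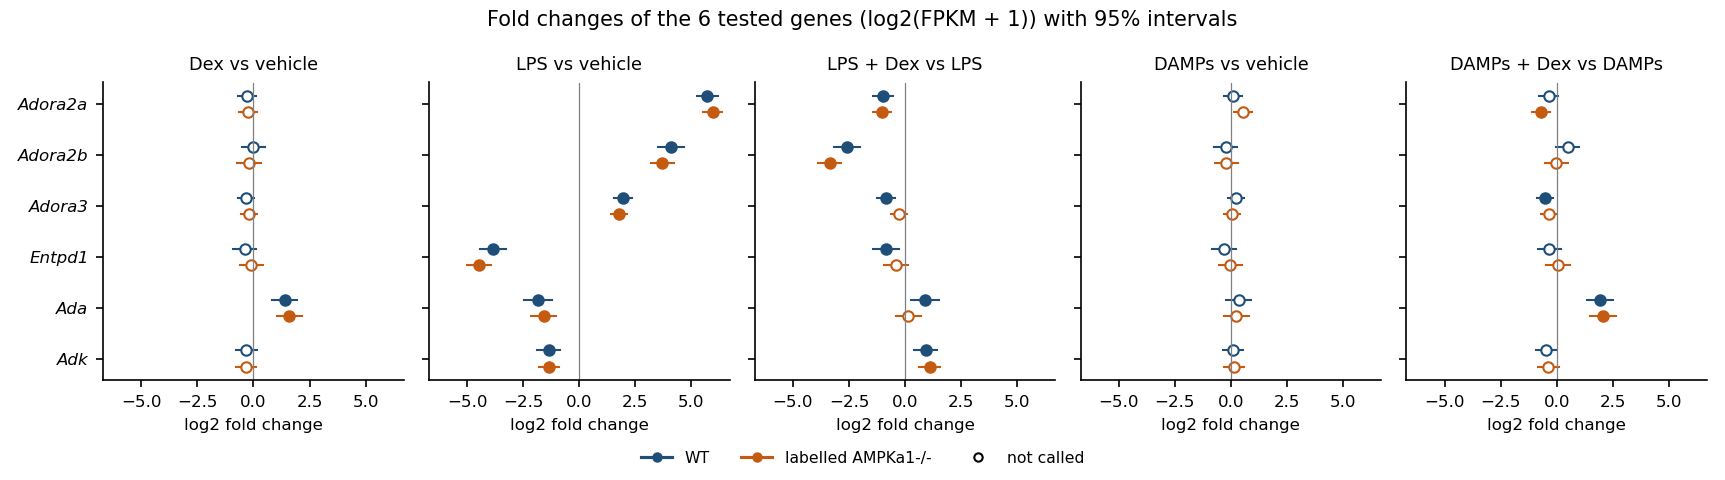
Log2 fold change on the log2(FPKM + 1) scale (horizontal axis) of the 6 tested members (rows) in 5 comparisons (panels), for WT and for cultures labelled AMPKa1-/- (colours); bars are 95% intervals of the limma fit and open points were not called. Receptors lie to the right and enzymes to the left with LPS, Ada alone stands to the right with Dex, and no member is called with DAMPs. Adora2a and Adora3 passed the filter only through libraries treated with LPS, so their points for LPS against vehicle are a description. The same holds for Adora3 with LPS + Dex against LPS.

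The genotypes were compared within each treatment. Of 6 treatments and 6 members, the single call was Adora2b with LPS + Dex, where the libraries labelled AMPKa1-/- (2.16, 3.18 and 3.32 FPKM) all lay below the WT libraries (9.35, 3.71 and 12.9 FPKM) by 1.19 on the log2 scale (standard error 0.25, limma adjusted p = 0.017, with 0.669% of all genes called). It was not called without WT replicate 1 or 3 or replicate 1 labelled AMPKa1-/- (adjusted p = 0.088 to 0.15), nor after quantile normalization (adjusted p = 0.055) or when fitted on the 2 groups alone (adjusted p = 0.77). The genotype difference in the effect of Dex on LPS was -0.79 for Adora2b (95% interval -1.56 to -0.02, adjusted p = 1). Neither a member nor any of the 11354 genes passed limma's test of genotype dependence for Dex, LPS, DAMPs, Dex on LPS or Dex on DAMPs, while 2441, 514, 66, 311 and 234 genes had an unadjusted p under 0.05, where 568 would be expected if no gene differed. The intervals stay wide: for Ada the genotype difference in the effect of Dex on LPS was -0.73 (95% interval -1.58 to 0.12). For Adora3 that difference was 0.58, given without an interval because Adora3 passed the filter only through the libraries of LPS alone. With LPS, Entpd1 was 0.94 lower in the libraries labelled AMPKa1-/- without a call (adjusted p = 0.15), and -1.59 (adjusted p = 0.0097) without WT LPS replicate 2 but -0.29 (adjusted p = 0.72) without WT LPS replicate 3. Each of these left 1 WT library, assumed to vary like the other groups. No member was called between genotypes in the Dex libraries, although 26.5% of all genes were (3008 genes, or 304 to 3105 without any one library). In the other treatments 0.432% (vehicle), 0.766% (LPS), 0.731% (DAMPs) and 1.06% (DAMPs + Dex) of all genes were called. Without any one library the 49 genes called with vehicle became 28 to 58, and the 76 with LPS + Dex became 36 to 110. The 83 with DAMPs became 25 to 55, and the 120 with DAMPs + Dex became 49 to 97. With LPS, 87 genes became 22 without LPS replicate 1 labelled AMPKa1-/-. That is not the full range: counts without a WT LPS replicate are not given here, since 1 library would be left in that group.

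Beyond the 7 members, 97 further genes of purine release, breakdown, uptake and sensing were listed in 8 groups; 96 were found and 63 were tested. Of these 63, Gja1 and P2rx5 averaged under 1 FPKM without the LPS and LPS + Dex libraries (0.315 and 0.398 FPKM) and without those of LPS alone (0.651 and 0.474 FPKM). They were therefore tested only through LPS, had to be higher there, and are described by their levels with no p. The counts that follow include both genes among those higher with LPS and lower with Dex on LPS, which for them is a description only. With LPS, 9 rose and 29 fell in WT (median -0.41, against -0.19 for all genes, of which 55.7% were called), and 13 rose and 36 fell in cultures labelled AMPKa1-/- (median -0.57, against -0.30, with 64.3% called). With LPS + Dex against LPS, 13 rose and 14 fell in WT and 18 rose and 11 fell in cultures labelled AMPKa1-/-, beside 34.1% and 37.7% of all genes called. The median of the list was 0.08 in WT and 0.12 in cultures labelled AMPKa1-/-, against -0.03 and 0.01 for all genes.

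Among enzymes that break down nucleotides outside the cell, 3 of 8 were tested. Cd38, an NAD-consuming ectoenzyme, was raised most by LPS, from 1.52, 0.917 and 1.04 FPKM to 196 and 109 FPKM in WT (6.10 on the log2 scale, limma adjusted p = 6.3e-15), and stayed at 128, 86.7 and 122 FPKM with LPS + Dex. Acp3, an acid phosphatase able to hydrolyse AMP, rose with LPS by 3.14 and fell with Dex on LPS by 2.03 (adjusted p = 0.021) in WT. Its level differed several-fold between replicates, with 87.1, 28.8 and 36.3 FPKM in LPS labelled AMPKa1-/-. Enpp1, which also hydrolyses ATP, fell with LPS by 1.37, from 3.40, 2.40 and 3.62 FPKM to 0.486 and 0.701 FPKM in WT.

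Genes of ATP release split. In WT, Panx1, a pannexin channel, and Ankh, an exporter of ATP and pyrophosphate, fell with LPS, with log2 changes of -2.80 and -2.97. Neither was called there with Dex on LPS. In cultures labelled AMPKa1-/-, 3 of the 5 tested genes of this list were called higher with Dex on LPS and 1 lower, beside 19.3% and 18.4% of all genes. Gja1, connexin 43, had 0.911, 0.192 and 0.435 FPKM with WT vehicle, 17.7 and 10.5 FPKM with LPS and 1.99, 0.980 and 2.01 FPKM with LPS + Dex. Slc17a9, the vesicular nucleotide transporter, was 0.99 higher with LPS + Dex than with LPS. Lrrc8a, a volume-regulated anion channel subunit, rose with Dex alone by 0.60 (adjusted p = 0.027).

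Of 4 tested nucleoside transporters, Slc28a2, a concentrative carrier of purine nucleosides, stood out with Dex. It had 9.97, 11.9 and 14.2 FPKM with WT vehicle and 108, 78.7 and 72.8 FPKM with WT Dex (2.74 on the log2 scale, limma adjusted p = 4.3e-08), and rose by 2.27 with Dex in cultures labelled AMPKa1-/-. Slc29a1, the equilibrative transporter ENT1, rose with Dex by 0.63, fell with LPS by 1.06 and was 0.50 higher with LPS + Dex than with LPS. Slc29a2 (ENT2) rose with Dex on LPS by 0.74, and Slc29a3 (ENT3, an intracellular member) fell with LPS by 1.27 and again with Dex on LPS by 1.16.

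In the list of inosine breakdown and purine salvage, 3 of 5 genes were tested. Hprt, which salvages hypoxanthine, Xdh, which oxidises it to uric acid, and Gda, guanine deaminase, are these. All 3 fell with LPS, beside 35.8% of all genes in WT and 44.1% in cultures labelled AMPKa1-/-, and all 3 rose with Dex on LPS, beside 16.6% and 19.3%. Gda changed most, with 20.7, 19.4 and 21.8 FPKM in WT vehicle, 1.04 and 0.750 FPKM in WT LPS and 25.2, 34.4 and 7.61 FPKM in WT LPS + Dex (3.40 against LPS, limma adjusted p = 9.7e-09). It also rose with Dex alone in WT, to 100.3, 90.2 and 74.0 FPKM. Xdh rose with Dex alone in WT by 0.97, whereas Hprt fell by 0.69. In cultures labelled AMPKa1-/-, Dex alone called 0 of these 3 genes higher and 1 lower.

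In the list of intracellular AMP and adenosine enzymes, 15 of 18 were tested. With LPS 2 rose and 5 fell in WT, beside 55.7% of all genes called, and 5 rose and 6 fell in cultures labelled AMPKa1-/-, beside 64.3%. Adss1, an adenylosuccinate synthase, went from 50.9, 52.9 and 54.6 FPKM with WT vehicle to 6.73 and 9.40 FPKM with LPS and 34.3, 39.8 and 35.9 FPKM with LPS + Dex, a rise of 2.07 with Dex (limma adjusted p = 1.3e-09). Nt5c3, a pyrimidine-preferring 5′-nucleotidase, went the other way, from 18.7, 18.2 and 17.9 FPKM to 78.9 and 80.5 FPKM and back to 17.7, 23.1 and 17.8 FPKM. Nt5c2, a nucleotidase for IMP and GMP, fell by 0.66 and rose by 0.68, and Ahcyl2, a relative of adenosylhomocysteinase, fell by 0.82 with Dex on LPS. Adss2 and Ampd3, an AMP deaminase, fell with LPS by 0.80 and 0.96, and Aprt, which salvages adenine, fell with Dex alone by 0.71 in WT.

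Of 9 tested receptors for ATP, ADP and other nucleotides, LPS raised 1 and lowered 6 in WT (median -0.90, against -0.19 for all genes, of which 35.8% fell) and raised 1 and lowered 5 in cultures labelled AMPKa1-/- (median -0.72, against -0.30, with 44.1% lower). P2rx7, the channel that ATP opens to start inflammasome signalling, went from 43.7, 38.8 and 42.2 FPKM in WT vehicle to 7.66 and 6.44 FPKM in WT LPS and was not called with Dex on LPS. P2ry12 and P2ry1, both ADP receptors, fell with LPS by 1.89 and 1.73. The one counted as raised, in both genotypes, was P2rx5, which the filter kept only through LPS. It had 0.474, 0.239 and 0.302 FPKM with WT vehicle and 8.42 and 17.3 FPKM with LPS, and its log2 difference between LPS + Dex and LPS in WT was -2.91. P2ry6, P2ry14 and P2rx4 fell with LPS by 0.90, 0.68 and 0.96 in WT and fell further with Dex on LPS by 1.30, 1.19 and 0.63.

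Downstream of the receptors, 24 of 38 listed genes of cAMP signalling were tested; 2 rose and 10 fell with LPS in WT, where 55.7% of all genes were called, and 3 rose and 17 fell in cultures labelled AMPKa1-/-, where 64.3% were. With LPS + Dex against LPS, 4 rose and 4 fell in WT beside 34.1% of all genes, and 5 rose and 3 fell in cultures labelled AMPKa1-/- beside 37.7%. Pde4b, which degrades cAMP, rose with LPS from 4.80, 5.34 and 5.93 FPKM to 85.2 and 71.1 FPKM (3.64, limma adjusted p = 3.6e-11) and stayed at 78.6, 56.5 and 44.8 FPKM with LPS + Dex. Pde4d, a related phosphodiesterase, and Nr4a1, a transcription factor gene induced by cAMP, rose with Dex on LPS by 1.44 and 1.92 in WT. Crem, a modulator of cAMP-responsive transcription, fell by 1.38 and Pde7a by 0.84. Adcy3, an adenylyl cyclase, and Prkacb, a catalytic subunit of protein kinase A, fell with LPS by 1.90 and 1.54.

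**Figure D4:**
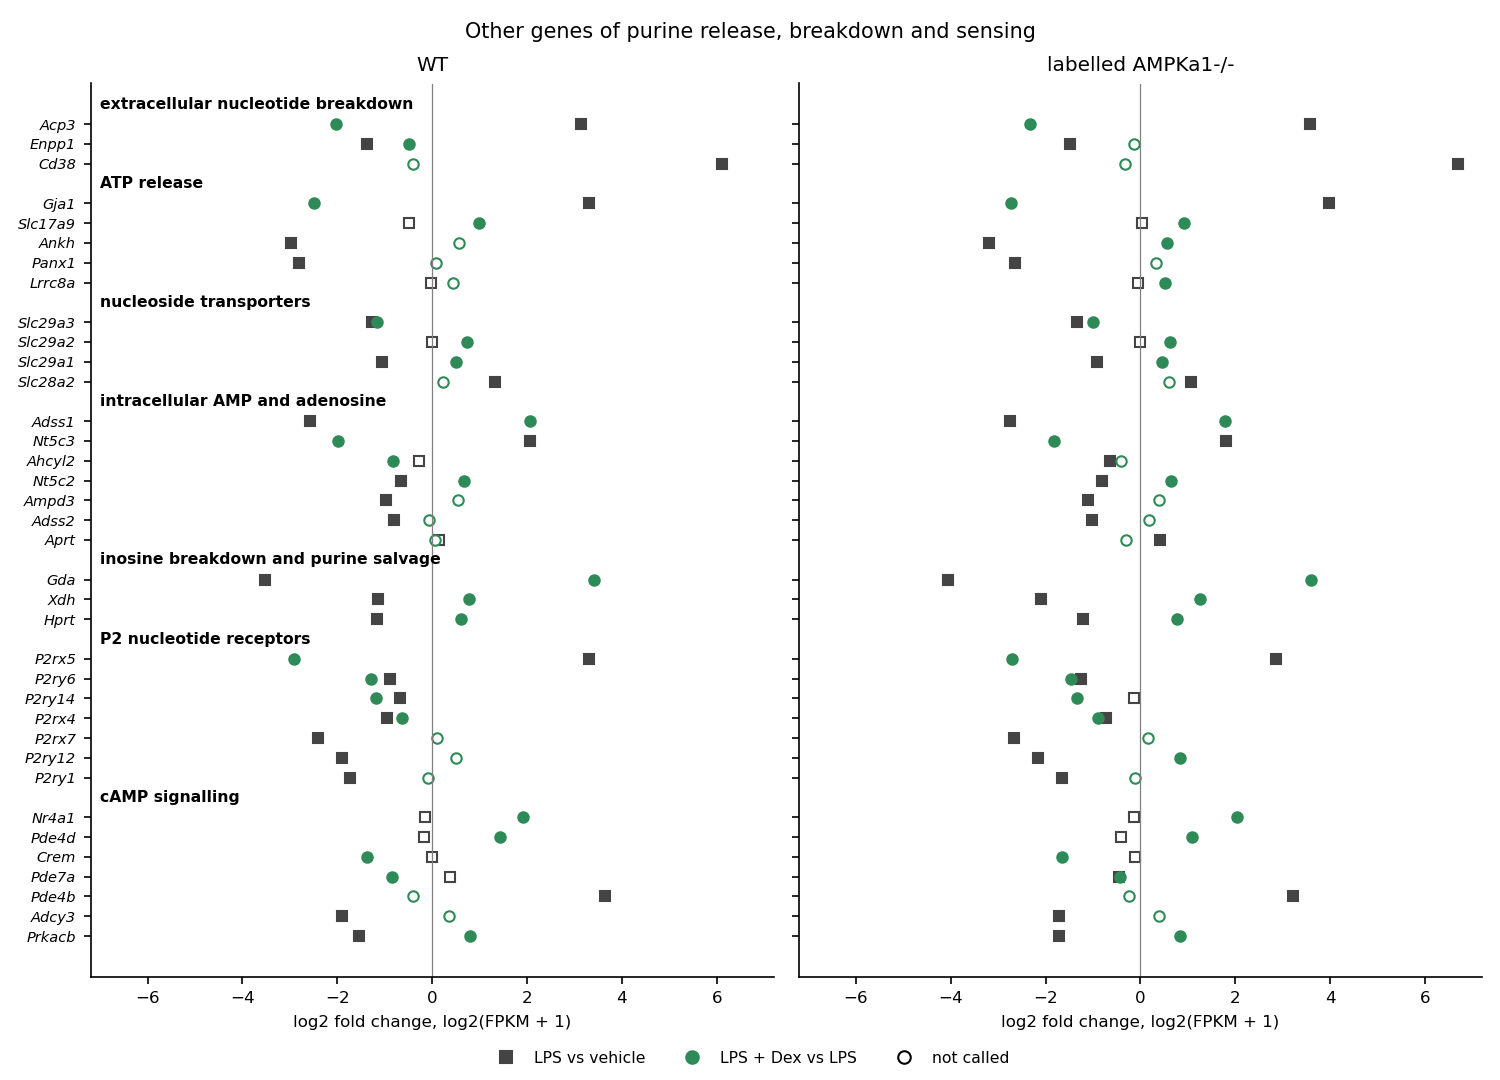
Log2 fold change on the log2(FPKM + 1) scale (horizontal axis) of 36 named genes of purine release, breakdown, transport and sensing (rows, grouped by list) for LPS against vehicle (squares) and LPS + Dex against LPS (circles), in WT (left) and in cultures labelled AMPKa1-/- (right); open symbols were not called. Gda, Xdh, Hprt and Adss1 lie left of 0 with LPS and right of 0 with Dex on LPS, while Gja1, P2rx5, Acp3 and Nt5c3 do the reverse. Gja1 and P2rx5 were tested only through LPS, so their positions are a description, whether their symbols are filled or open.

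The libraries carried macrophage markers throughout: all 8 listed genes had a mean of at least 1 FPKM, summed to 15410 to 40580 FPKM per library, with the highest FPKM for Lyz2. Single macrophage markers moved with treatment in both directions. From WT vehicle to WT LPS, mean Cd68 went from 1522 to 187 FPKM, Cd14 from 217 to 1632 FPKM and Adgre1 from 1006 to 1903 FPKM. Fcgr1 averaged 80.6 FPKM in WT vehicle, 323 FPKM in WT LPS and 8.10 FPKM in WT Dex. Mertk averaged 37.8 FPKM in WT vehicle and 204 FPKM in WT Dex. Itgam had 62.5 to 64.3 FPKM in WT vehicle and 9.12 to 13.3 FPKM in WT Dex. Lists for T cells (at most 0.258 FPKM summed), B cells (at most 3.19 FPKM), mast cells or basophils (at most 1.53 FPKM), dendritic cells (at most 1.69 FPKM) and fibroblasts or stroma (at most 12.8 FPKM, mainly Col1a1) were near 0 beside these. The neutrophil and endothelial lists reached 132.8 and 57.5 FPKM, both in WT LPS libraries, and in each 1 gene that moved with the receptors made up most of the sum. Without LPS the sums did not exceed 15.5 and 6.08 FPKM. Camp had 113 to 132.7 FPKM in WT LPS, 32.9 to 52.1 FPKM in WT LPS + Dex and 0.157 to 1.36 FPKM in WT vehicle, while Ly6g, Mpo and Elane, which define neutrophils, were at or near 0 in WT LPS (0, 0 and at most 0.102 FPKM). The other neutrophil genes of the list, Ngp and Ltf, averaged 1.90 and 1.46 FPKM in WT vehicle and 0 and 0.154 FPKM in WT LPS. Kdr had 45.0 to 52.9 FPKM in WT LPS against 1.17 to 2.69 FPKM in WT vehicle, while the endothelial cadherin gene Cdh5 did not exceed 0.105 FPKM in WT LPS. Pecam1, the last gene of that list, which leukocytes also express, had 0.324 to 0.577 FPKM in WT vehicle and 3.10 to 4.41 FPKM in WT LPS. The part of other cells in the results was not tested.

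Across the 35 libraries, the genes whose log2(FPKM + 1) ran closest to each member are given as a description, since all libraries share the same 6 treatments. Adora2a was closest to Ptges (prostaglandin E synthase, Pearson r = 0.995), Rasgrf1 (0.994) and Sod2 (mitochondrial superoxide dismutase, 0.992). Adora2b was closest to U90926 (0.978), Il6 (0.972) and Vgf (0.971), and Adora3 to Lmo4 (0.965), Gpr84 (0.964) and Dnajb11 (0.964). Entpd1 ran with Rab11fip5 (0.984), the mannose receptor gene Mrc1 (0.980) and St6gal1 (0.980), Ada with Anxa6 (0.971), Tmem37 (0.957) and Mgme1 (0.954), and Adk with Sept6 (0.902), Slc44a1 (0.895) and Fgf11 (0.892).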

How the data were processed

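The authors deposited FPKM values for each library. Per the submitters' processing notes the reads were handled with Bowtie2 2.2.3, TopHat2 2.0.12, HTSeq 0.6.1 and DESeq2 on GRCm38 (mm10), with roles and gene annotation not given. Symbols were taken from GENCODE release M21 (46574 of 47069 identifiers) or, for listed genes, RefSeq synonyms. Promoter sequences are from RefSeq (GRCm38.p6).

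Differences were taken from limma 3.58.1 (R 4.3.3), which fitted the 35 libraries as 12 groups after log2 transformation of FPKM + 1, with a mean-variance trend in its moderated, 2-sided test. Genes averaging under 1 FPKM were left out, and Benjamini-Hochberg adjustment ran over the 11354 genes left, at 0.05, in each of 25 comparisons. WT LPS, with 2 libraries, borrows its spread from the other groups. The fit was checked on simulated data in which libraries varied independently and changes were placed only in genes of higher level. That check does not cover libraries paired by replicate number or changes of weakly expressed genes. Whole fragments were accepted within 0.02, and limits for values of 0 stand for 3 fragments; they and all intervals of counts cover counting error only. Tables and figures used Python 3.11.15, pandas 2.3.3, numpy 2.4.6 and matplotlib 3.10.9.

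Members, gene lists and tests were chosen with earlier results of these data known. Named genes are the members, the label checks, the 3 best-correlated genes of each member and, from each list, up to 4 genes with the largest called change for WT LPS + Dex against LPS and up to 3 more called for WT LPS or WT Dex against vehicle.

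Replicate numbers paired the libraries by the correlation of deviations from group means, over 0.1 in all 3 pairs, for LPS and LPS + Dex labelled AMPKa1-/- (0.356 to 0.375) and for vehicle labelled AMPKa1-/- with Dex (0.217 to 0.400), LPS (0.124 to 0.316) and LPS + Dex (0.246 to 0.365). The same held for WT Dex with LPS + Dex (0.223 to 0.554) and DAMPs (0.241 to 0.486), for WT LPS + Dex with DAMPs (0.487 to 0.757) and for LPS + Dex between genotypes (0.119 to 0.515), and for no other pair of groups with 3 shared numbers within a genotype or a treatment. The labels do not say what a number marks. Alternatives were another pseudocount, other filters, other scalings, fewer groups, no moderation, a replicate block and leaving out each library.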

Additional observations from a re-analysis of the deposited data

How the results depend on the processing

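Over 9 other settings and 35 fits without 1 library, no called member change reversed its direction; the sign of changes that were never called could turn, as for Ada with LPS + Dex against LPS labelled AMPKa1-/- (-0.30 to 0.38). Of 1233 member values under other settings, 1211 kept their side of the threshold, 16 lost the call and 6 gained one; of 1116 values without a library, 20 lost it and 6 gained one. The number of members called changed by over 1.5 times in the following cases, and by 0 or 1 under the other settings. The cause was not tested, apart from members that a filter left out. A pseudocount of 0.1 gave 3 for WT Dex against vehicle, 1 for DAMPs against vehicle and 2 for the non-additive term, the last 2 labelled AMPKa1-/-. For WT DAMPs + Dex against DAMPs it was 1 without a filter (where all 7 members are tested) and with quantile normalization. It was also 1 with a mean FPKM of at least 5, where Adora3 (mean 1.32 FPKM) was not tested. With only the groups compared it was 1 too, and there Adora3 (means 0.634 and 0.138 FPKM) lay under the filter. For the same comparison labelled AMPKa1-/- it was 1 with quantile normalization. It was also 1 with only the groups compared, where Adora2a (means 0.930 and 0.196 FPKM) lay under the filter. Fitting only the groups compared left 1 for WT LPS + Dex against LPS, where fewer libraries estimate the spread. The genotype call with LPS + Dex went to 0 with quantile normalization and with only the groups compared. Without single libraries the counts ranged from 4 to 5 for WT LPS + Dex against LPS (6 with all libraries), from 4 to 6 for WT LPS + Dex against vehicle (5), from 3 to 4 for LPS + Dex against LPS (3) and the non-additive term (4) labelled AMPKa1-/-, from 2 to 3 for the WT non-additive term (2), from 0 to 1 for the genotypes with LPS + Dex and with LPS, and from 1 to 2 for WT DAMPs + Dex against DAMPs.

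With the replicate number as a block, 1 member call changed: the non-additive term of Adora2a in WT was -0.73 (limma adjusted p = 0.037). No other member call changed.

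Genes called in all changed by over 1.5 times in the comparisons of genotypes and of DAMPs with vehicle. Fitting only the groups compared left 2065 genes of 3871 for WT LPS + Dex against LPS, 1 of 228 for WT DAMPs against vehicle and 7 of 76 between genotypes with LPS + Dex. Without Dex replicate 2 labelled AMPKa1-/- or WT Dex replicate 2, 308 and 304 of 3008 genes differed between genotypes with Dex. Without a filter, 118 genes passed for genotype dependence of the LPS response and 75 for that of Dex on LPS. In the same setting 21 passed for Dex, 9 for Dex on DAMPs and 2 for DAMPs. With the replicate number as a block, 5 genes passed for genotype dependence of the LPS response.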
